A study of Rattus norvegicus with 3 samples.

Results

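Potassium channel genes were described in the rat cerebellar cortex after stroke. They were taken as the genes on the array whose RefSeq symbol begins with Kcn, followed by the letters of a subfamily and a number. The array held 90 such genes of its 16654 named genes, in 19 subfamilies. RefSeq lists 96 symbols of this form, and 6 of them matched no accession on the array. RNA was taken 2 days after transient occlusion of the right middle cerebral artery (MCAO) or after a sham operation, from male Wistar rats aged 9 weeks. The contralateral group was the left and the ipsilateral group the right cerebellar cortex of rats with MCAO, and the control group was the left cerebellar cortex of sham-operated rats. Tissue of 4 rats was pooled for each group, and its RNA was hybridised to 1 array with a single dye. Both MCAO pools came from the same rats, and both comparisons with the control group use the same control array. No replicate array exists, so no test was made and no difference has a replicate check.

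Potassium channels let potassium ions leave or enter the cell and so set the resting potential, end the action potential and shape the intervals between spikes. Voltage-gated channels are built from alpha subunits that form the pore, often joined by auxiliary subunits, whereas inward rectifiers and leak channels hold the membrane near rest. In the cerebellum they are known for the fast firing of Purkinje cells and interneurons, for the quiet resting state of granule cells, and for the buffering of potassium by glia.

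The 90 genes were read from 128 probes, and 33 genes had more than 1 probe. Signals are log2 intensities shifted so that the 75th percentile is equal on the 3 arrays, and ratios are differences of these signals. Where sides are not named, values are listed in the order contralateral, ipsilateral and, for signals, control. The error given with a ratio is propagated from the error that the scanner software gives for each spot, and it covers neither rats nor hybridisations. A gene is called detected here when the software marked each of its probes as well above the local background on each array. By this measure 62 Kcn genes (68.9%) were detected, compared with 11250 of all named genes (67.6%). Of the other 28 Kcn genes, 13 had no probe well above background on any array, and 15 had one on some arrays or by some probes.

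In the contralateral cerebellar cortex, the log2 ratio over the control group exceeded 1 for 3 Kcn genes and was below -1 for 6. Over all named genes these shares were 3.15% and 4.82%. In the ipsilateral cerebellar cortex, 10 Kcn genes were above 1 and 2 were below -1, against 8.95% and 2.04% of all named genes. Between the sides, 1 Kcn gene exceeded 1 (contralateral over ipsilateral) and 8 were below -1, against 1.30% and 9.91%. Most of these genes were dim. Of the 9 called on the contralateral side, 6 were well above background on neither of the arrays compared, and such ratios measure no change.

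Among the 62 detected genes the counts were smaller. No Kcn gene was above 1 on the contralateral side (0.80% of all detected named genes) and 1 was below -1 (0.658%). On the ipsilateral side 1 was above 1 (1.68%) and 1 was below -1 (0.427%). Between the sides none was above 1 (0.169%) or below -1 (1.01%). A lower threshold of 0.5, chosen after seeing the data, was passed upwards by 2 genes on the contralateral side (3.34% of all detected named genes) and downwards by 2 (4.15%). On the ipsilateral side it was passed upwards by 3 (6.31%) and downwards by 2 (2.95%), and between the sides upwards by 0 (0.711%) and downwards by 6 (4.80%). With so few genes these counts are not set apart from the background.

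The median log2 ratio of the detected Kcn genes was -0.07 on the contralateral side, with 28 genes above 0 and 34 below, and it turned positive, at 0.04, with normexp background correction. The same median over all detected named genes was 0.01. On the ipsilateral side the Kcn median was 0.05, with 36 genes above 0 and 26 below, against 0.02 over all detected named genes. It was negative without scaling (-0.48), with scaling to spike-in probes (-0.20) and with the deposited values (-0.01). Between the sides it was 0.01, and -0.09 with normexp. Without scaling it was -0.23 on the contralateral side and 0.39 between the sides, and 59 of the 62 genes lay below 0 on the ipsilateral side. The place of the family relative to 0 therefore depends on the scaling.

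**Figure D1:**
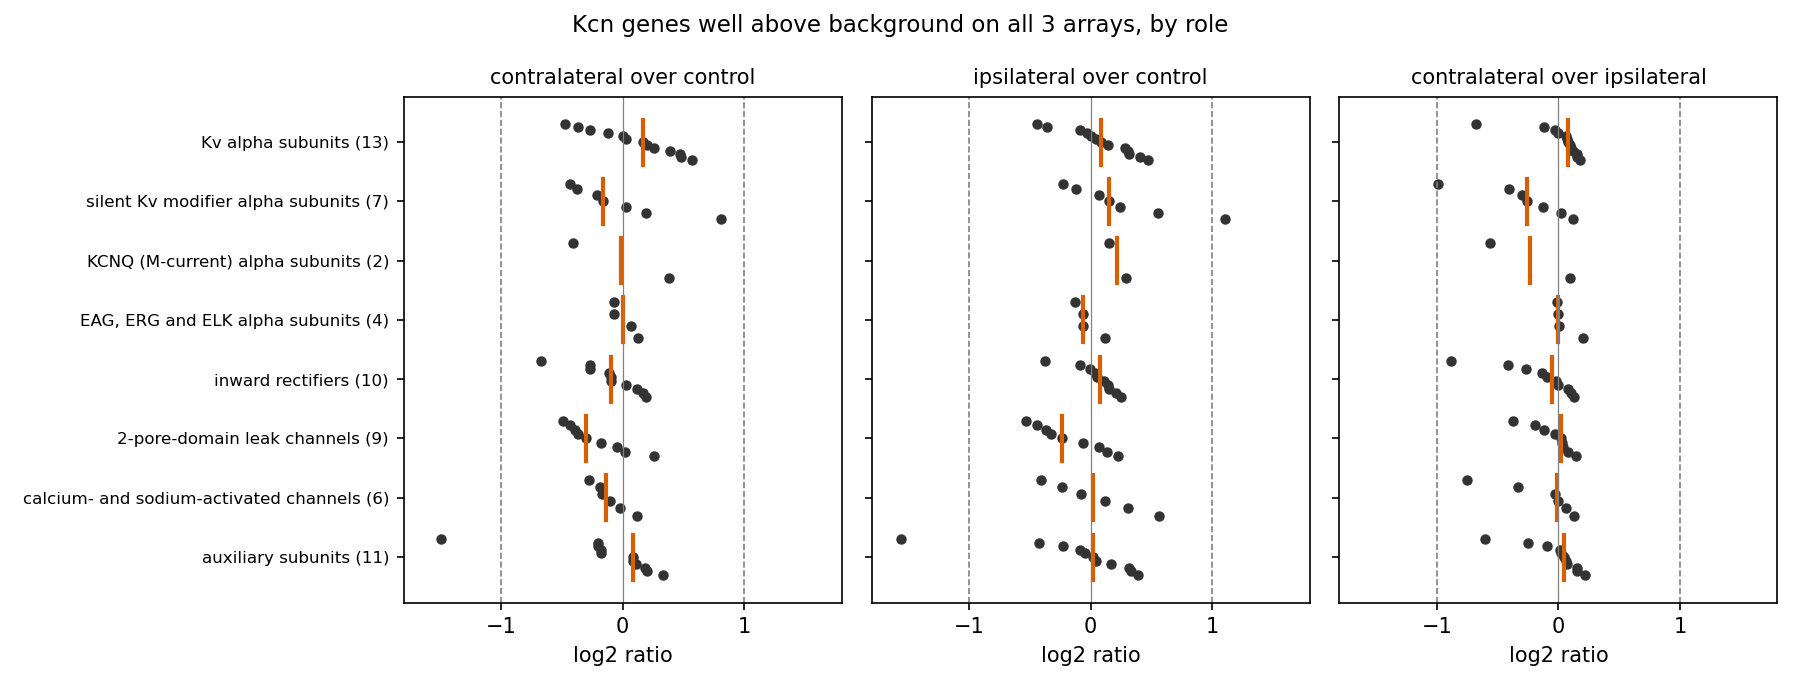
Log2 ratios (horizontal axis) of the 62 detected Kcn genes in the 3 comparisons, grouped by role with the number of genes in brackets. Each point is a gene, the orange bar is the median of its group, and dashed lines mark log2 ratios of -1 and 1. Kcne5 lies below -1 in both comparisons with the control group, and Kcng3 lies above 1 on the ipsilateral side.

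Voltage-gated alpha subunits of the Kcna to Kcnd subfamilies carry the delayed rectifier and A-type currents that repolarise neurons. Of 17 genes on the array 13 were detected, with median log2 ratios of 0.16 contralaterally and 0.09 ipsilaterally.

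Repeated spots of the same probe show the precision within an array, although they share the pool and the hybridisation. For Kcnip2, which encodes a calcium-binding auxiliary subunit of A-type channels, the 10 spots of 1 probe overlapped between all arrays, with log2 ratios of 0.07 on both sides. Its other probe, of 1 spot, gave 0.10 and 0.60, so that the gene was at 0.08 and 0.34. For Kcna1, Kcnh1, Kcnk1 and Kcnmb4, each with 2 spots of a probe, the scaled spots of both MCAO arrays lay above those of the control array. This depends on the scaling. Without it the ipsilateral ratios of these genes were -0.39, -0.42, -0.31 and -0.37, and the contralateral ratio of Kcnh1 was -0.03. The value for Kcnk1 is the mean of its 2 probes. With scaling that mean was 0.22, and the probe with 2 spots gave 0.30.

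**Figure D2:**
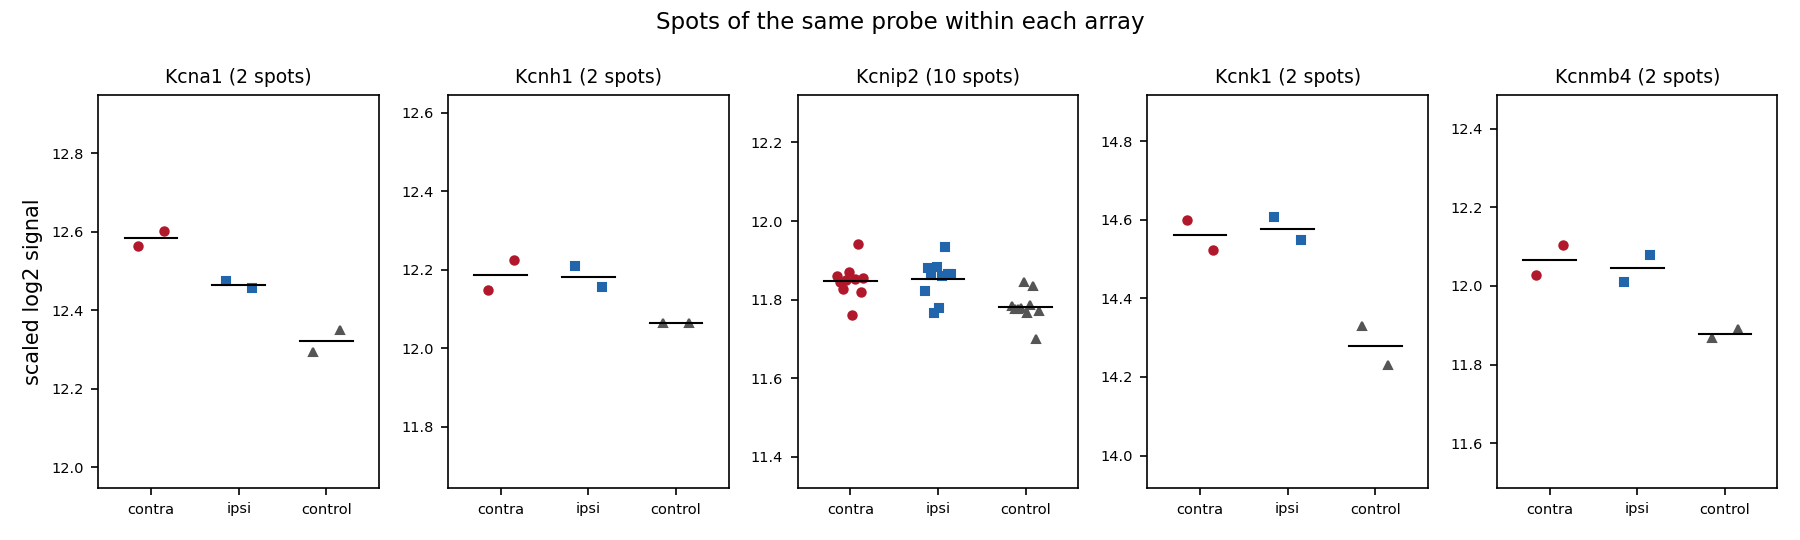
Scaled log2 signals (vertical axis, 1 log2 unit in each panel) of the spots of the same probe on the contralateral, ipsilateral and control arrays, for 5 Kcn probes with more than 1 spot. Points are spots and black lines are their means. The Kcnip2 spots overlap between the arrays, and the other control spots lie below those of both MCAO arrays, which depends on the scaling.

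The Kcna subfamily forms the low-threshold channels that sit at axon terminals of cerebellar basket cells, among other places. Kcna1 was at 12.58, 12.47 and 12.32, with ratios of 0.26 and 0.14. Kcna6 was at 10.23, 10.13 and 9.84, with ratios of 0.39 and 0.29. Kcna2, whose protein assembles with that of Kcna1, went the other way. Its signals were 8.71, 8.84 and 9.19, and its ratios of -0.48 and -0.36 kept their sign under every alternative. Kcna4, an A-type subunit, had ratios of 0.48 and 0.41 with errors of 0.39 and 0.44. Kcna7 had a log2 ratio between the sides of -0.68, with an error of 0.35.

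Kcnc channels deactivate quickly and allow high firing rates. All 4 genes of the subfamily were detected, and their ratios lay between -0.12 for Kcnc4 and 0.20 for Kcnc1 on the contralateral side. On the ipsilateral side they lay between -0.09 and 0.05. Kcnc2 had 2 probes that moved in opposite directions in both comparisons with the control group. For the A-type subunits of the Kcnd subfamily, Kcnd3 had signals of 6.94, 6.79 and 6.47 and ratios of 0.47 and 0.32. Its 3 probes gave contralateral ratios of 0.20, 0.36 and 0.86, so the size depended on the probe. Kcnd2, known for the granule cell A-type current, had ratios of 0.16 and 0.09, and Kcnd1 had ratios of -0.27 and -0.44.

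Silent alpha subunits of the Kcnf, Kcng, Kcns and Kcnv subfamilies form no channel on their own and modify channels that other alpha subunits form. Of 10 genes 7 were detected. Kcng3 had signals of 4.71 on the contralateral, 5.01 on the ipsilateral and 3.91 on the control array. Both MCAO arrays were higher, with ratios of 0.81 and 1.11 and an error of 0.33 each. The ipsilateral ratio fell short of 1 without scaling (0.57), with normexp (0.61), with scaling to spike-in probes (0.86) and after quantile normalization (0.88), and both ratios were positive under every alternative. Kcng3 was read from 1 spot.

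Kcns1 differed between the sides, with signals of 3.38, 4.36 and 3.81. Over the control group its contralateral log2 ratio was -0.43, with an error of 0.40, and its ipsilateral one 0.56, with an error of 0.35. Between the sides it was -0.99, the smallest among detected Kcn genes whose probes moved in the same direction. The contralateral ratio turned to 0.06 with normexp. Kcng2 had ratios of -0.21 and -0.23, Kcnv1 had 0.03 and 0.15, and Kcnv2 had -0.38 and -0.12. Kcns2 was well above background on the ipsilateral and control arrays only, with an ipsilateral ratio of 1.17. By the measured signals it was 3.19-fold higher on the ipsilateral than on the contralateral array, with a log2 error of 0.46. Where a fold is given below as at least a value, the brighter signal was set against the lowest signal well above background on the dimmer array. Such folds hold under the scaling used. Without scaling, ratios moved by -0.15 (contralateral over control), -0.53 (ipsilateral over control) and 0.38 (between the sides).

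The Kcnq subfamily carries the M-current, which limits repetitive firing. Kcnq3 had ratios of 0.38 and 0.29, but its probes disagreed. The brighter probe gave 0.06 and -0.04, and the dimmer one gave 0.70 and 0.61. Kcnq1, which is better known from epithelia and heart, had signals of 5.85, 6.41 and 6.26 and a ratio between the sides of -0.56. Kcnq5 was not well above background on any array. The Kcnh subfamily holds the EAG, ERG and ELK channels, and 4 of its 8 genes were detected. Kcnh1 was highest with ratios of 0.12 on both sides, Kcnh2 was at -0.07 and -0.06, and Kcnh4 was at 0.07 and -0.13. Kcnh7 had a probe that was not well above background on the ipsilateral array.

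**Figure D3:**
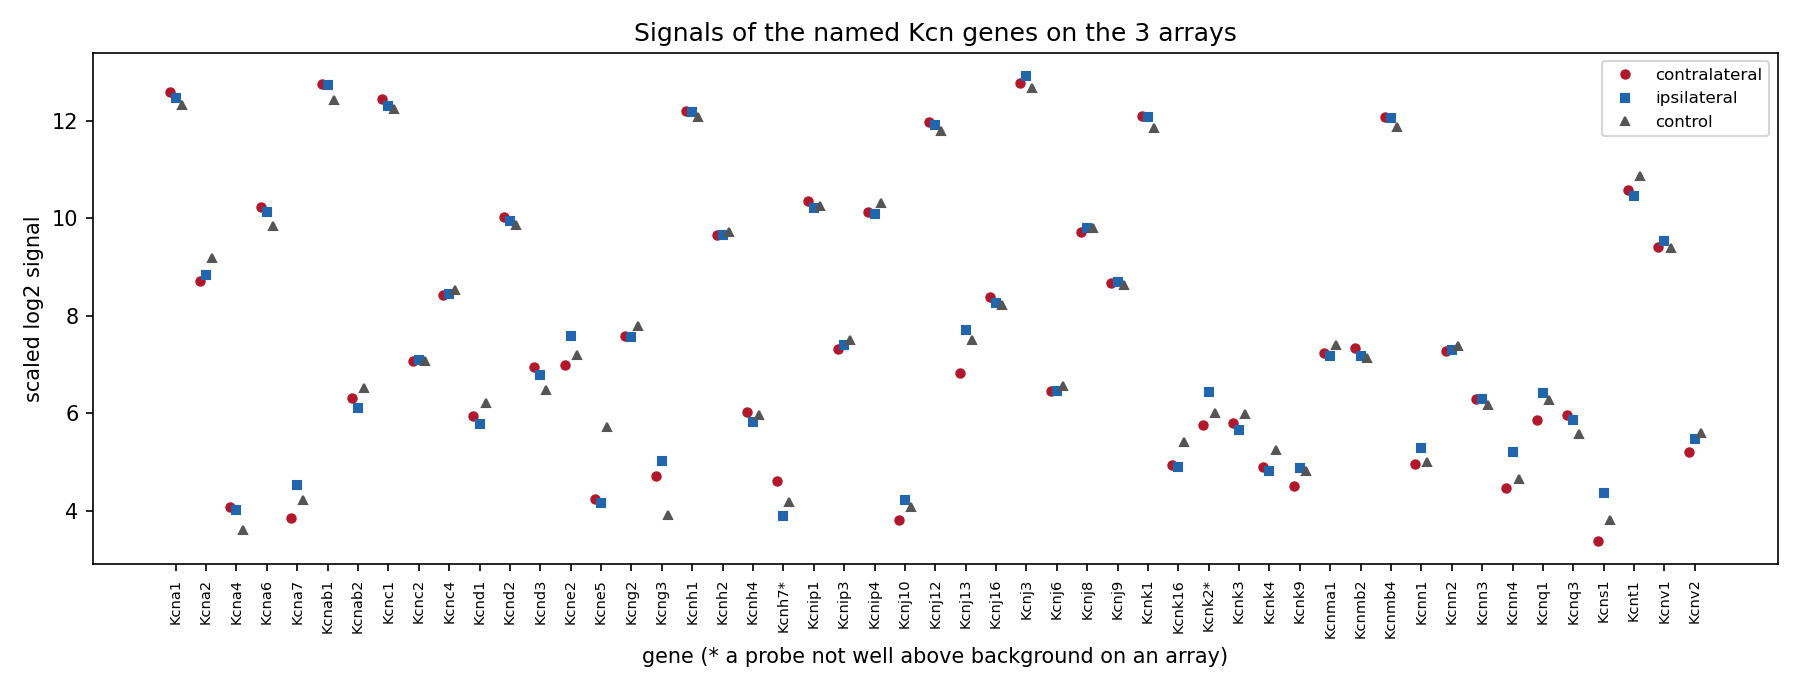
Scaled log2 signals (vertical axis) of the named Kcn genes (horizontal axis) on the contralateral (red circles), ipsilateral (blue squares) and control (grey triangles) arrays. An asterisk marks genes that were not detected. For most genes the 3 symbols lie close together, whereas for Kcne5 the control array, at 5.72, lies above both MCAO arrays; levels of different genes cannot be compared.

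Inward rectifiers of the Kcnj subfamily pass potassium near the resting potential. They include G protein-gated channels of neurons, glial channels that clear potassium and the pore of ATP-sensitive channels in vessels. Of 15 genes 10 were detected, with medians of -0.09 and 0.08. The neuronal G protein-gated subunits Kcnj3, Kcnj6 and Kcnj9 had contralateral ratios of 0.12, -0.09 and 0.03 and ipsilateral ratios of 0.25, -0.09 and 0.05. The probes of Kcnj6 gave ipsilateral ratios of 0.10 and -0.28. For the glial subunits, Kcnj16 had ratios of 0.17 and 0.04, and Kcnj10 had ratios of -0.27 and 0.14 with errors of 0.33 and 0.34. Kcnj8, the ATP-sensitive pore of mural cells, had ratios of -0.09 and 0.00. Kcnj12 was the highest of the subfamily on the contralateral side, at 0.19. These genes differed from the control group by less than 0.3 in either direction.

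Kcnj13 stood out in the subfamily. It encodes an inward rectifier of epithelia, among them the choroid plexus, the tissue that secretes cerebrospinal fluid. Its signal was 6.82 on the contralateral, 7.70 on the ipsilateral and 7.49 on the control array. The contralateral array was the lowest, with a ratio to the control group of -0.68, and the ratio between the sides was -0.89, each with an error of 0.21. The ipsilateral ratio of 0.21 turned to -0.32 without scaling. Kcne2, an auxiliary subunit that is also found in the choroid plexus, had signals of 6.98, 7.58 and 7.19. Its ratios were -0.21 and 0.39, and -0.60 between the sides, where its 2 probes gave -0.78 and -0.42.

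Detected markers of choroid plexus epithelium were lower on the contralateral side, as were both genes, but differed among themselves on the ipsilateral side. Of 15 markers 14 were on the array and 9 were detected. All 9 were below 0 on the contralateral side, with a median of -0.60. On the ipsilateral side 6 were above and 3 below 0, down to -1.20 for Slc4a5, with a median of 0.41. Without scaling every ipsilateral ratio moved by -0.53, so the sign of this ipsilateral median depends on the scaling. The summed signal of the list on a linear scale was 11925 on the contralateral, 78655 on the ipsilateral and 35792 on the control array. Ttr gave the strongest signal, with log2 values of 13.27, 16.20 and 15.01. It made up most of the sum on each array, so the sums mainly follow Ttr and not the list as a whole. The markers Cldn2 and Tmem72 were not well above background on any array. The part of choroid plexus tissue in the values of Kcnj13 and Kcne2 was not tested, and in pooled tissue fewer cells of a type and less RNA per cell cannot be told apart.

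**Figure D4:**
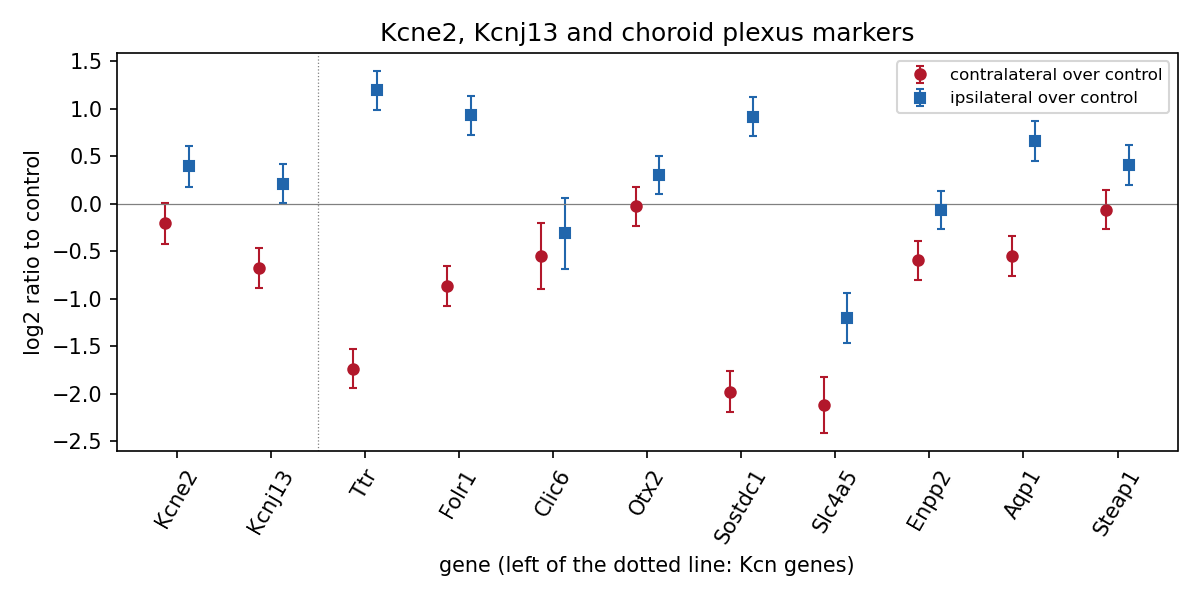
Log2 ratios to the control group (vertical axis) of Kcne2, Kcnj13 and the 9 detected choroid plexus markers, for the contralateral (red circles) and ipsilateral (blue squares) side. Bars are the scanner error and cover neither rats nor hybridisations. All 9 markers lie below 0 on the contralateral side, as do Kcnj13 at -0.68 and Kcne2 at -0.21.

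Several other Kcnj genes had large ratios without being detected on each array. Kcnj2 was well above background on the ipsilateral and control arrays, with a ratio of 1.17. By the measured signals it was 2.41-fold higher on the ipsilateral than on the contralateral array, under the scaling used. Kcnj5 had 2 probes that disagreed. The probe well above background on each array gave an ipsilateral ratio of 0.46, and the other was well above background on the ipsilateral array only. Kcnj4 and Kcnj15 were well above background on no array, and their ratios were not read.

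Leak channels of the Kcnk subfamily carry a background current that holds neurons and glia at rest. Of 13 genes 9 were detected. Their median was -0.30 on the contralateral side, with 2 genes above 0 and 7 below, and -0.24 on the ipsilateral side, with 3 above and 6 below. Over all detected named genes the medians were 0.01 and 0.02. The tilt depended on the processing for several of these genes. Under the alternatives the contralateral ratios of Kcnk4, Kcnk3 and Kcnk9 reached -0.02, -0.04 and 0.01. The ipsilateral ratios of Kcnk4, Kcnk3, Kcnk9 and Kcnk16 changed sign under some alternatives. Kcnk16 had signals of 4.93, 4.89 and 5.42 and ratios of -0.49 and -0.53, with errors of 0.23 and 0.25. With normexp these were -0.03 and 0.07. Kcnk12, named after its values were seen, had signals of 11.91, 11.94 and 12.31 and ratios of -0.39 and -0.37, with an error of 0.20. Kcnk4, a mechanosensitive channel, had ratios of -0.37 and -0.44.

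Kcnk1 had the largest ratios of the detected leak channels, at 0.26 and 0.22. Kcnk3 and Kcnk9, which encode the acid-sensitive channels behind the standing outward current of granule cells, had contralateral ratios of -0.18 and -0.30 and ipsilateral ratios of -0.33 and 0.07. The probes of Kcnk3 gave contralateral ratios of -0.40 and 0.04. Kcnk2 had 2 probes, of which 1 was not well above background on any array, and the other gave ratios of 0.15 and 0.17. Kcnk13 also had 2 probes, and the one well above background on each array gave ratios of -0.20 and 0.04. For Kcnk10 the probe of this kind gave -0.61 and -0.68, and the other was not well above background on the ipsilateral array.

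Calcium- and sodium-activated channels link firing to a later hyperpolarisation. Of 7 genes 6 were detected. Kcnma1, the large-conductance channel of Purkinje cells, had signals of 7.23, 7.17 and 7.40 and ratios of -0.17 and -0.23. Its neuronal auxiliary subunit Kcnmb4 had ratios of 0.19 and 0.17. The small-conductance channels Kcnn1, Kcnn2 and Kcnn3 had contralateral ratios of -0.02, -0.11 and 0.12 and ipsilateral ratios of 0.31, -0.08 and 0.12. The probes of Kcnn2 disagreed, with ipsilateral ratios from -0.43 to 0.40 and contralateral ratios from -0.36 to 0.01. Kcnt1, a sodium-activated channel, was at 10.59, 10.46 and 10.86, with ratios of -0.27 and -0.40. Kcnt2 was well above background on the contralateral array only, where it was at least 1.58-fold higher than in the control group.

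Kcnn4 encodes the intermediate-conductance channel, which is known from immune cells and microglia. It had signals of 4.45, 5.20 and 4.64, so that the ipsilateral array was the highest. The ratios were -0.19 and 0.56 over the control group, and -0.75 between the sides, with errors of 0.29 to 0.31. Without scaling the ipsilateral ratio was 0.03. Microglia and macrophage markers were also higher on the ipsilateral side. Of 12 markers 11 were detected, with medians of 0.21 and 0.54, and 9 were above 0 on the ipsilateral side. Without scaling every ipsilateral ratio moved by -0.53, so the ipsilateral level of these markers also depends on the scaling. Their summed signal was 13857 on the contralateral, 17499 on the ipsilateral and 10114 on the control array. C1qb gave the strongest signal, and Aif1, a further microglial marker, had ratios of -0.29 and -0.10. The part of microglia in the Kcnn4 values was not tested.

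Auxiliary subunits bind to the pore-forming subunits and change their gating or transport. Of 16 genes 11 were detected. Kcne5 had the smallest ratios of all detected Kcn genes in both comparisons with the control group. Its product is a small membrane protein that modifies Kcnq1 and other voltage-gated channels. The signal was 4.23 on the contralateral, 4.16 on the ipsilateral and 5.72 on the control array. Both MCAO arrays were lower, with ratios of -1.49 and -1.56 and errors of 0.26 and 0.30. Its 2 probes gave -1.87 and -1.11 on the contralateral side and -1.47 and -1.65 on the ipsilateral side. With normexp, which adds an offset that shrinks the ratios of dim genes, the gene was at -0.43 and -0.26, and its sign was kept under every alternative. Kcne5 was read from 2 spots, and both ratios rest on the single control array.

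The Kcnab subfamily encodes cytoplasmic subunits of Kcna channels. Kcnab1 had signals of 12.75, 12.73 and 12.42 and ratios of 0.33 and 0.31. Kcnab2 was at 6.32, 6.10 and 6.52, with ratios of -0.20 and -0.42. For the Kcnip subfamily, whose products bind Kcnd channels, Kcnip1 had ratios of 0.11 and -0.05, Kcnip3 had -0.18 and -0.09, and Kcnip4 had -0.18 and -0.23. Kcnmb2 was at 0.20 and 0.04. Kcne4 was well above background on the ipsilateral array only. There it was at least 1.57-fold higher than in the control group under the scaling used, and without scaling this ratio moved by -0.53.

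Promoters are shown for Kcne5 and Kcng3, the detected genes beyond a log2 ratio of 1, and for Kcnj13; they were picked after the data were seen. Of the 90 genes, 62 had an entry in the RefSeq promoter table of the GRCr8 assembly, with 68 promoters in all; Kcne2 had none. Each sequence holds the 250 bases before the start of the gene, 5′ to 3′ on its own strand, at chrX:110727850-110728099 (minus) for Kcne5, chr6:16803592-16803841 (plus) for Kcng3 and chr9:95518987-95519236 (minus) for Kcnj13. Capitals mark the motifs found on either strand among the TATA box TATAAA, the GC box GGGCGG, the E-box CACGTG, the cyclic AMP response element TGACGTCA and the glucocorticoid half-site AGAACA.
Kcne5: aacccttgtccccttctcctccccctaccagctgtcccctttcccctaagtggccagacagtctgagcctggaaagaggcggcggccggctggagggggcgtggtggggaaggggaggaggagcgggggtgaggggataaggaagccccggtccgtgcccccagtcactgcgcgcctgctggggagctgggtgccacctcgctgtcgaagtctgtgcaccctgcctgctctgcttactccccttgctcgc
Kcng3: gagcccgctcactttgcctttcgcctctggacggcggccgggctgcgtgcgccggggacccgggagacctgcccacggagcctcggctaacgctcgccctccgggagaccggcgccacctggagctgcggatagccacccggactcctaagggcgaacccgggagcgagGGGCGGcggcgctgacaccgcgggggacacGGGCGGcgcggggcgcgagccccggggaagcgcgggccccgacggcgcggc
Kcnj13: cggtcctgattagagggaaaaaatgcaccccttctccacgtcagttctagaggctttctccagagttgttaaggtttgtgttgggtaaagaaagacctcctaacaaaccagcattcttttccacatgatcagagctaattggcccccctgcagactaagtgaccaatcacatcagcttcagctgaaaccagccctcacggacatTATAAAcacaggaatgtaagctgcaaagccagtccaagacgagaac
Kcne5 held none of these letters. Kcng3 held the GC box, which was found in 48.5% of the Kcn promoters, 30.5% of all 33469 promoters and 55.3% of those of detected named genes. Kcnj13 held the TATA box, which was found in 2 of the 68 Kcn promoters, in 12.9% of all promoters and in 7.51% of those of detected named genes. Kcn promoters had a median of 11.5 CG pairs in this window, against 5 for all promoters and 15 for those of detected named genes. A match of letters is a description and not a binding site.

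Genes that work with potassium channels were described by lists. Of 28 partner genes on the array 25 were detected, and none of these was beyond 1 in either comparison with the control group. Their medians were 0.02 and -0.06. Aqp4, the water channel of astrocyte endfeet, was lowest with -0.55 and -0.45. Of 9 genes of hyperpolarisation-activated and cyclic nucleotide-gated channels 4 were detected, with medians of 0.01 and -0.04, and none was beyond 1. Of 20 genes of potassium pumps and cotransporters 17 were detected, with medians of 0.07 and 0.15. No detected pump or cotransporter was beyond 1 on the contralateral side, and Slc12a1 was above it on the ipsilateral side, at 1.07. Fxyd1, a regulator of the sodium pump, had ratios of 0.70 and 0.55, and Atp4a had -0.94 and -0.47.

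Markers of cerebellar neurons are given because tissue makeup also enters the values of channel genes. All 12 granule cell markers were detected, with medians of 0.04 and -0.04, and all 12 Purkinje cell markers, with medians of 0.14 and 0.11. The 10 cerebellar interneuron markers had medians of 0.09 on both sides. Astrocyte and Bergmann glia markers had medians of -0.04 and -0.06, and oligodendrocyte markers had -0.11 and -0.04. Endothelial and mural cell markers were at -0.26 and -0.16, and leptomeningeal markers were at -0.58 and -0.37. Of the forebrain neuron markers, 6 of 11 on the array were detected, with medians of 0.20 and 0.11, and Tbr1 was well above background on no array. Nrgn, a marker of this list, stood apart with 1.83 and -0.21. Of the markers of deep nuclei and brainstem 3 were detected, with medians of -0.14 and -0.50. Of the blood and muscle markers, the blood marker Hbb-b1 was lower on both MCAO arrays, with -1.70 and -2.14, and the muscle markers Ckm and Mb had 0.19 and 0.00 contralaterally and 0.64 and 0.24 ipsilaterally.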

How the data were processed

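The authors quantified the spots of 1-colour Agilent arrays with Agilent Feature Extraction 12.1.0.3 (per the file headers) and deposited the intensity of each spot. The processed intensity used here has the background subtracted. The 3 arrays lay on 1 slide and came from 1 scan. The deposited value table holds the same intensity times 1 factor per array (1.12, 1.45 and 1.04 for the contralateral, ipsilateral and control arrays), with medians of 139.4, 139.6 and 146.9. The study's methods mention normalization to control samples of the chip, and do not say how it led to these factors. The 75th percentile of the processed intensity over 58717 non-control spots was 2103, 1614 and 2336, and log2 values were shifted to make it equal. After removal of 759 outlier spots, a gene was the mean of its probes and a probe the mean of its spots. Accessions were named through RefSeq (GRCr8), where 17622 of 39957 matched. A log2 ratio beyond 1 or -1 was the threshold.

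Members and lists were chosen with earlier results of these data known. Named genes were the 5 largest and 5 smallest ratios of each comparison among detected genes whose probes moved in the same direction, the largest and smallest contralateral ratio of each subfamily, and channels with a known place in the cerebellum or its surroundings. Other genes were named after their values were seen. The alternatives left out scaling, scaled to 8 spike-in probes or to the median, or used normexp (offset 50) on median signals (no mean signal was in the files), quantile normalization, the deposited values, only detected genes, only the brightest probe, or all spots including outliers. The counting was run on simulated data with planted changes larger than the threshold, in spots well above background only. This checks the code and says nothing about dim genes. Tools were R 4.3.3 with limma 3.58.1 and Python 3.11.15 with numpy 2.4.6 and pandas 2.3.3.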

Additional observations from a re-analysis of the deposited data

Results flagged for a closer look

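Kcnj13 had opposite directions on the sides, with a log2 ratio to the control group of -0.68 (contralateral) and 0.21 (ipsilateral). Kcns1 likewise had -0.43 (contralateral) and 0.56 (ipsilateral). Each value exceeded its own scanner error. No test of either difference was possible, since each side has 1 array. The ipsilateral value of Kcnj13 and the contralateral value of Kcns1 changed sign under some alternatives.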

How the results depend on the processing

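Without scaling, every ratio moved by -0.15 (contralateral over control), -0.53 (ipsilateral over control) and 0.38 (between the sides), and the median of all named genes went to -0.13, -0.47 and 0.34. Scaling to spike-in probes moved the ratios by -0.08, -0.25 and 0.17, and normexp took the median of all named genes to 0.20 on the ipsilateral side. Relative to all detected named genes, the Kcn median was -0.08, 0.03 and 0.01 under these plain scalings. Without scaling, 3 Kcn genes were above 1 and 7 below -1 on the ipsilateral side and 2 were above 1 between the sides, and the medians were -0.48 and 0.39. Beyond 0.5, the detected counts without scaling were 1 higher and 11 lower contralaterally, 1 and 28 ipsilaterally, and 11 and 2 between the sides. With spike-in probes, 6 were above 1 and 5 below -1 on the ipsilateral side, with a median of -0.20, and beyond 0.5 there were 1 and 6 on the contralateral and 1 and 10 on the ipsilateral side. Quantile normalization gave 2 and 4 on the ipsilateral side and 2 and 5 between the sides, and beyond 0.5 it gave 1 higher on the ipsilateral side and 2 between the sides. Thus the higher share of the ipsilateral calls was 83.3%, but 30% without scaling, 54.5% with spike-in probes and 33.3% after quantile normalization. Between the sides it was 11.1%, 25% without scaling and 28.6% after quantile normalization. With the scaling used, the calls over all named genes leaned the same way. On the ipsilateral side 1491 of these were higher and 340 lower, and between the sides 216 were higher and 1651 lower. The lean of the main Kcn counts is therefore not particular to Kcn genes. Under the alternatives no such counts over all named genes are given, so the Kcn shares there have no background. With normexp, 0 Kcn genes passed 1 in either direction in any comparison, and beyond 0.5 there were 1 higher and 0 lower contralaterally, 0 lower ipsilaterally and 1 lower between the sides. Detected genes alone left 0 and 1, 1 and 1, and 0 and 0, because fewer genes were counted. Beyond 0.5, the deposited values gave 4 lower and median scaling 4 higher on the contralateral side, and the brightest probe gave 1 higher between the sides. Beyond these constructions, the cause was not tested. For single named genes, 1098 of the ratios recomputed moved by less than their scanner error and 198 by more, and none beyond 1 changed sign. The sign was kept under every alternative for 38 (contralateral), 14 (ipsilateral) and 20 (between the sides) of 54 named genes. No paired analysis was possible because each group has 1 array. Dim signals limit the 28 Kcn genes that were not detected.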
